A study of Homo sapiens with 12 samples.

Results

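The genes described here are 49 genes of DNA replication and of the entry from G1 into S phase, chosen by name: the MCM helicase, the GINS complex with CDC45, origin licensing factors, the replicative polymerases, the sliding clamp and its loader, nucleotide supply, fork proteins, chromatin and methylation copying, and E2F factors. The names were chosen with earlier results of these data known, so the shares called below describe the set and are no independent test of it. Each of the 49 names matched 1 row of the deposited table of 63241 genes. The study sequenced polyadenylated RNA from T98G and U251, which are lines of human glioblastoma cells. For each of them, 3 libraries labelled PEPD-OE (over-expression of PEPD, the gene of peptidase D, which splits dipeptides that end in proline) were set against 3 libraries labelled NC, which the labels do not spell out. So the 4 groups were T98G PEPD-OE, T98G NC, U251 PEPD-OE and U251 NC, 12 libraries in all, and the question is how PEPD over-expression changed transcript levels in glioblastoma cells. The labels give no vector, clone, dose, time or other treatment, and do not say whether replicates were separate cultures, so the p-values measure the spread between these libraries, which may be technical.

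Before S phase, the origin recognition complex, CDC6 and CDT1 load the ring of MCM2 to MCM7 onto DNA. The ring becomes an active helicase when CDC45 and GINS join it, after which primase and the polymerases copy both strands, held to DNA by the PCNA clamp that replication factor C loads. Many of these genes are transcribed together late in G1, when E2F factors are released from the retinoblastoma protein, and proliferating tumour lines keep them switched on.

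PEPD itself was at 156 to 175 CPM in T98G PEPD-OE against 2.60 to 19.0 CPM in NC, and at 167 to 187 CPM in U251 PEPD-OE against 6.44 to 13.2 CPM, where CPM is counts per 1000000 counts of a library, scaled between libraries. Library totals ran from 464056 counts (T98G NC 1) to 924204, and the 49 genes together took between 0.136% and 0.236% of a library, or 981 to 1987 counts, so single genes rest on few counts. A count of 3 equalled 3.25 to 6.46 CPM. Of the glial markers, VIM, CD44, EGFR and SOX9 were counted in all 12 libraries and OLIG2 in none. GFAP had 18 to 58 counts in the T98G libraries against 574 to 1189 in U251, and NES, SOX2 and FABP7 were at or near 0 in T98G. Of 12 markers of other cell types, VWF, EPCAM and MOG were at 0, and the list summed to 4 to 55 counts in a library. That sum was 12 to 19 counts in U251 NC and 30 to 31 in U251 PEPD-OE, most of it from SYT1, a neuronal gene, and its part in the U251 results was not tested.

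A pair of libraries stood apart. T98G PEPD-OE 2 held 2985 counts of hemoglobin genes and 199 of leukocyte genes, and T98G NC 2 held 1971 and 297, where the other 10 libraries held 0 to 65 and 0 to 18. Hemoglobin genes took 0.414% and 0.266% of the counts of these libraries, and HBB alone gave 2630 and 1707. PTPRC, the leukocyte marker of the list of other cell types, had 25 and 35 counts there and 0 to 5 elsewhere. The list of 11 blood genes was chosen after the values were seen. Each group of T98G holds 1 of these libraries, and whether they bear on the results was not tested apart from leaving both out, and the text gives the values of that fit where it ends a T98G call, turns a sign or moves a called value by over 1.5 times.

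The table's strand is a further limit. The library kit kept the strand of origin, but the strand setting of the counting is not given in the sources used here. Of the 49 genes, 16 share exon bases with a gene on the other strand. There the reads of the gene and of its partner cannot be told apart in the shared bases. RRM2 (1077 bases), POLD1 (426), POLD3 (123), CHAF1B (89) and DNMT1 (83), among others, share exon bases with a gene on their own strand. No strand setting separates those reads, and the genes named count below as without an opposite-strand partner. TYMS had 390 counts and its partner ENOSF1 had 40836. MCM2 had 561 counts and its partner AC023593.1 had 8402. Per kilobase of exon, AC023593.1 held 26.4 times the counts of MCM2, and AC009630.2 held 153 times those of GINS4, opposite which it lies. Other partners held fewer than their gene, such as TPRA1 opposite MCM2 (0.101 times) and TMEM258 opposite FEN1 (0.0574 times). Whether reads of the replication genes were counted in the rows of their partners was not tested. Genes without an opposite-strand partner are given as a separate count below, but the unknown strand setting applies to all rows of the table. Whether it bears on the counts of genes without a partner was not tested. Over the libraries, ACTB had 1288 to 1879 CPM, GAPDH 1365 to 2744 CPM and EEF1A1 814 to 1363 CPM.

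The sequences upstream of the genes that changed in both lines are shown first, because those genes moved in opposite directions in the lines. Promoters were taken from RefSeq (GRCh38.p14) as 250 bases before to 50 bases after a RefSeq start and are printed for 5 genes out of 43 matched. That start can differ from the gene positions given below, which come from GENCODE. The DNMT1 and UHRF1 windows, for example, lie inside those positions and away from their ends. No promoter was used for MCM4, MCM5, GINS4, POLD3, RPA2 and E2F8. Capitals mark words of the E2F type, of which 4 were searched on both strands: TTTCCCGC, TTTCGCGC, TTTGCCGC and TTTGGCGC. On the other strand these read GCGGGAAA, GCGCGAAA, GCGGCAAA and GCGCCAAA, and TTTCGCGC can overlap its own complement. The promoters of 5 of the 6 genes that changed in both lines are these, each written 5′ to 3′ on the strand of its gene.
MCM7, chr7:100101348-100101647, minus strand: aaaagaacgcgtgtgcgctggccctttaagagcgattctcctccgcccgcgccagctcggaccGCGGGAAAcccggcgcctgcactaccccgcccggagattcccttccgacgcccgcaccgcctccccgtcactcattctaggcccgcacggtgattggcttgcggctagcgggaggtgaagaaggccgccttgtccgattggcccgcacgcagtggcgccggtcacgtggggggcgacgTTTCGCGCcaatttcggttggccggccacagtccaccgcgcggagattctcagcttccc
POLE, chr12:132687293-132687592, minus strand: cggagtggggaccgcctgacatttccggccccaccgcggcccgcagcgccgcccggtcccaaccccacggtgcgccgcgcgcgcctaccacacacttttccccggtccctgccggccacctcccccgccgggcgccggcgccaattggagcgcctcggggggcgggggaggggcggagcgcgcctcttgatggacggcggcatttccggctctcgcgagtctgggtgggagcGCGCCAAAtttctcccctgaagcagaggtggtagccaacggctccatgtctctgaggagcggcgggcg
CLSPN, chr1:35769929-35770228, minus strand: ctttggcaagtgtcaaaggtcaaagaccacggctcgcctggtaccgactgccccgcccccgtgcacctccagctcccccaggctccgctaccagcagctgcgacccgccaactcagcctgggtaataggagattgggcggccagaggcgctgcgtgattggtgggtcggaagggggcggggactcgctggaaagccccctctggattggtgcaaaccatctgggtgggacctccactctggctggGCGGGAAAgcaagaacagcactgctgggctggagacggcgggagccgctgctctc
UHRF1, chr19:4909251-4909550, plus strand: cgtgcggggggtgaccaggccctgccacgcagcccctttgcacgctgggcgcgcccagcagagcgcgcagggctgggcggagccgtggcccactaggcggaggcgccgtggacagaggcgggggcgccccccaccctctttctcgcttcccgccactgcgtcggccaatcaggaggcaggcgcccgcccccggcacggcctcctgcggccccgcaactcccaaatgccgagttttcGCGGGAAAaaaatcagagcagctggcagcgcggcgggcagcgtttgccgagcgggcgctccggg
DNMT1, chr19:10194904-10195203, minus strand: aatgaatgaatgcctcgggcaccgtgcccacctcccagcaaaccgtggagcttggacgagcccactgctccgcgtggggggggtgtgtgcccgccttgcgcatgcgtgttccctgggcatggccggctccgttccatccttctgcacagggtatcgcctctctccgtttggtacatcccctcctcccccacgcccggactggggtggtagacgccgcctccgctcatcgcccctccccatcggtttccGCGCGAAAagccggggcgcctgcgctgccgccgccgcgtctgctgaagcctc

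MCM7 held 2 such words, POLE, CLSPN, UHRF1 and DNMT1 held 1 each, and the promoter of the other of these genes, CDC45, held none. Over all the genes of replication with a promoter, 22 of 43 (51.2%) held at least 1 word, against 3.33% of 27305 promoters of the same length and 5.71% of the 6501 tested genes with a promoter. The pentamer CCAAT, read on both strands, stood in 25 of 43 (58.1%), against 35.7% of all promoters. Among genes whose change differed between the lines, 9 of 13 with a promoter (69.2%) held an E2F-type word and 12 of 13 a CCAAT, and among the tested genes whose change was not called different these were 9 and 11 of 24. A match describes the letters in this window and shows no bound factor.

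As a group, the replication genes were lower with PEPD over-expression in T98G and higher in U251. Their summed level was 2188, 2141 and 2105 CPM in the T98G NC libraries and 1541, 1529 and 1571 CPM in the T98G PEPD-OE libraries. In U251 the sum was 1649, 1637 and 1519 CPM in the NC libraries and 2114, 2298 and 2122 CPM in the PEPD-OE libraries. No library of one group reached the range of the other in either line. In means ± SD of 3 libraries, as used from here on, the sum went from 2145 ± 41.8 to 1547 ± 22.0 CPM (n = 3) in T98G, a ratio of 0.721. It rose from 1602 ± 71.9 to 2178 ± 104 CPM in U251, a ratio of 1.36. The range of T98G NC overlapped that of U251 PEPD-OE, and the T98G PEPD-OE libraries lay within the range of U251 NC. DNMT1 gave 11.3% of all counts in the sum, the most of any of these genes. In bulk RNA, fewer cells in a phase of the cell cycle and less RNA per cell cannot be told apart.

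**Figure D1:**
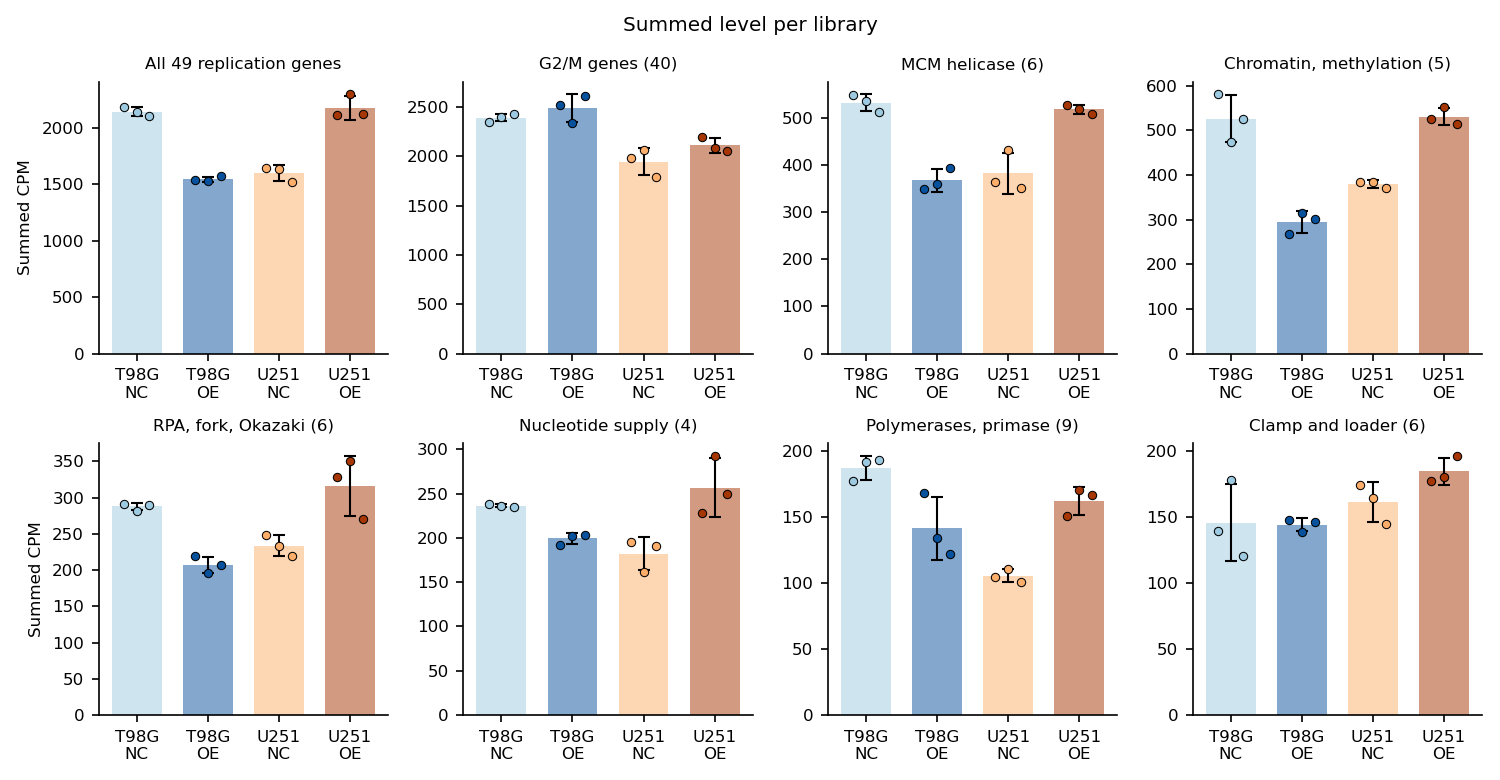
Summed level (CPM, linear axis from 0) of all 49 replication genes, of 40 G2/M genes and of 6 groups of replication genes; points are libraries, bars the mean and error bars the SD of 3 libraries. In the panel of all 49 genes, the T98G PEPD-OE libraries (1529 to 1571 CPM) lie under T98G NC (2105 to 2188 CPM), while U251 PEPD-OE (2114 to 2298 CPM) lies over U251 NC (1519 to 1649 CPM); the G2/M panel shows overlapping groups.

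In the test across genes, 41 of the 49 passed the filter on counts, and the call was an adjusted p under 0.05 over 8773 genes. A mean of at least 10 counts in every group was reached by 24 genes. The other tested genes had fewer in 1 group or more, and passed through the groups where they were higher. MCM6, for one, had 8, 7 and 7 counts in U251 NC. In T98G, 13 of 41 (31.7%) were called lower, where 14.7% of all tested genes were, and 2 of 41 (4.9%) were called higher, where 17.7% were. In either direction, 32.3% of all tested genes were called in T98G and 8.55% in U251. Their median log2 fold change was -0.42, against 0 over all tested genes, and 35 of 41 values were negative. The libraries of the groups did not overlap for 17 genes that were lower (20.9% of all tested genes were so) and for 2 that were higher (22.6%). In U251, 11 of 41 (26.8%) were called higher by edgeR, where 4.13% of all tested genes were. None was called lower by edgeR or by DESeq2, where 4.42% of all tested genes were by edgeR, and 1 gene with a fall (RFC5) had an unadjusted p under 0.05. The median there was 0.46 against 0.00, and 39 of 41 values were positive. RFC5 had a log2 fold change of -0.71 (adjusted p = 0.0584, SE 0.25). For 18 genes all U251 PEPD-OE libraries lay above all NC libraries, which held for 11.4% of all tested genes.

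The change itself differed between the lines. The T98G change minus the U251 change was called below 0 for 15 of 41 genes (36.6%), where 13.6% of all tested genes were, and above 0 for none, where 14.1% were; no positive value had an unadjusted p under 0.05 by edgeR. Its median was -0.86, against -0.02 over all tested genes. Negative values in T98G and positive values in U251 came together in 33 of 41 genes. The same sign in both lines was seen for 8: MCM2, GINS3, RFC1, RFC2, RFC4 and LIG1 were positive and RFC5 and RPA2 negative. Both changes passed the test, lower in T98G and higher in U251, for MCM7, CDC45, POLE, CLSPN, UHRF1 and DNMT1. Of the 28 tested genes without an opposite-strand partner, 11 were lower and 1 higher in T98G, 9 were higher in U251, and 12 differed between the lines. The same shares over all 4115 tested genes without such a partner were not taken. A fit of genes without such overlap alone tested 26 of the replication genes. There 8 were lower and 1 higher in T98G, 7 were higher in U251, and 10 differed between the lines. Of all 4176 genes in that fit, 490 were lower and 650 higher in T98G, 134 were higher in U251, and 917 differed between the lines.

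The count of genes called in U251 depended on single libraries. Without U251 NC 3 the 11 genes called higher in U251 became 2, without PEPD-OE 2 they became 3, without PEPD-OE 3 they became 4, and without NC 1 or NC 2 they became 6. Over all tested genes, the 362 called higher in U251 became 234 without NC 3, 218 without PEPD-OE 2 and 356 without PEPD-OE 3. They became 221 without NC 1 and 268 without NC 2. In T98G the 13 became 8 without PEPD-OE 1, where the 1286 of all tested genes called lower became 1080. Without both T98G libraries that hold blood-gene counts, 9 genes were called lower in T98G, 8 of them among the 13, and 1 was called higher (POLA2, which had too few counts for the test of all 12 libraries). Of all 9281 genes tested there, 957 were lower and 1143 higher in T98G, and 2030 differed between the lines. In that fit, 16 genes differed between the lines, 14 of them among the 15, and the 11 genes of U251 stayed called. Of the U251 calls, MCM6 lost its call in 9 of 21 alternative fits, CDC45 in 8, POLD3 in 7, POLD1, POLE and PCNA in 5 each and MCM7 in 4. Of the T98G calls, RFC1 lost its call in 9 of 22, RPA2 in 8 of 21, GINS3 in 6 of 21, MCM7 in 4 of 21 and CDC45 in 4 of 22. For the difference, RRM1 lost its call in 3 of 20 and MCM10 in 2 of 21. The other genes that lost a call are given with their values below.

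**Figure D2:**
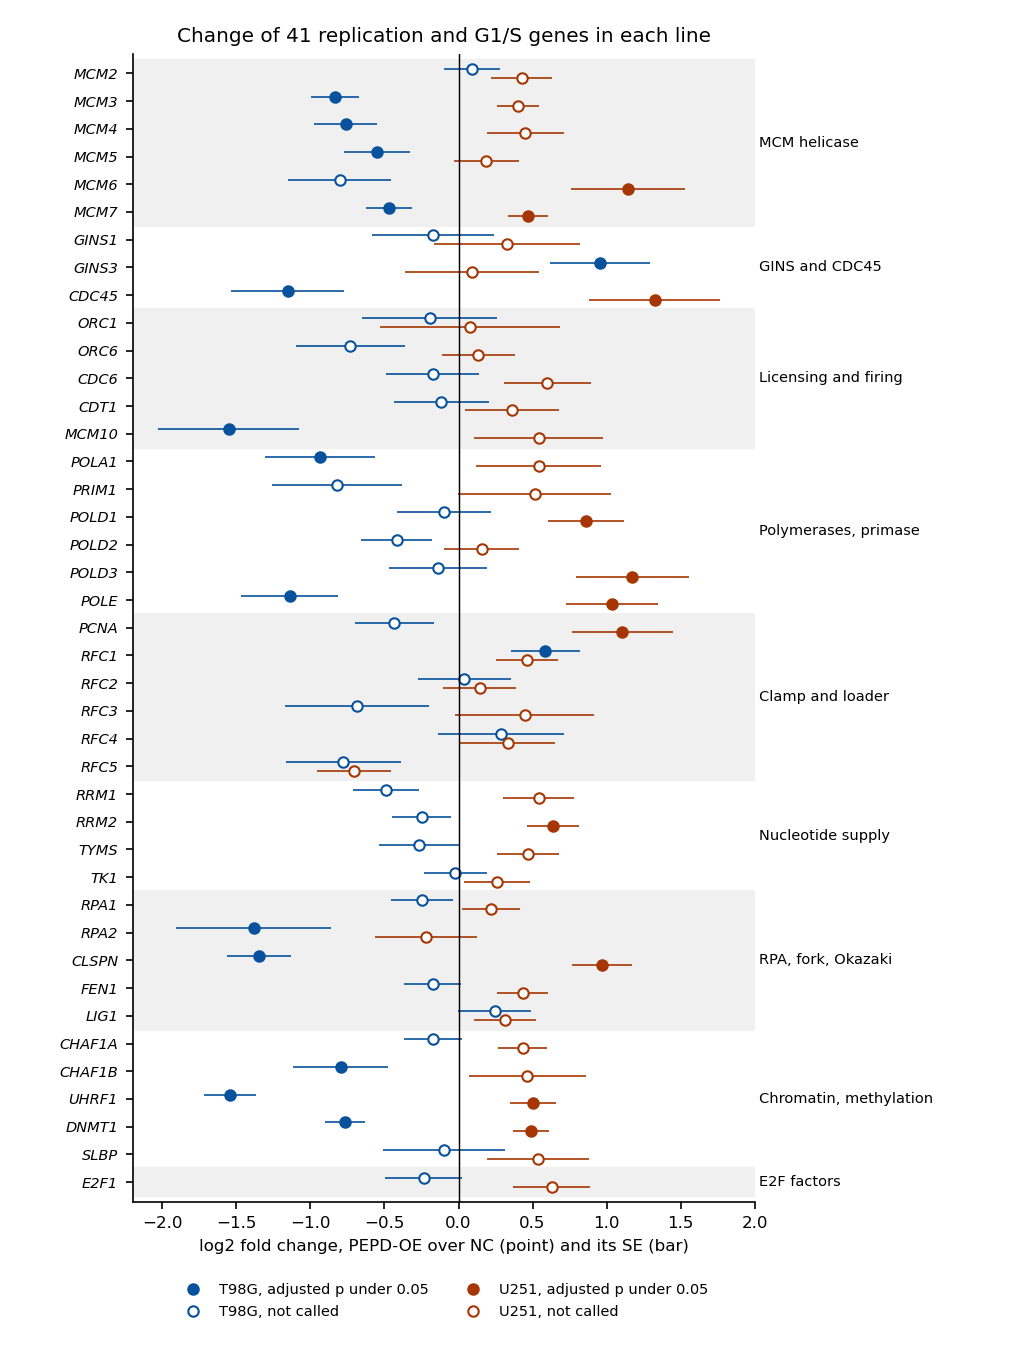
Log2 fold change of PEPD-OE over NC (horizontal axis) for the 41 tested genes, by role, in T98G (blue) and U251 (brown); points are the fitted values, bars 1 SE, and filled points have an adjusted p under 0.05. Filled blue points lie left of 0 except GINS3 and RFC1, and all filled brown points lie right of 0.

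The MCM helicase, the ring of 6 subunits that unwinds DNA at the fork, was tested in full. In T98G, 4 of its 6 genes were lower (MCM3, MCM4, MCM5 and MCM7), with a median log2 fold change of -0.66. In U251, 2 were higher (MCM6 and MCM7), with a median of 0.44. The summed MCM level went from 549, 537 and 514 to 349, 359.9 and 395 CPM in T98G and from 365, 433 and 352 to 527, 520.5 and 508 CPM in U251. The groups did not overlap in either line.

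MCM7 (GRCh38 chr7:100092728-100101940) was the member of the ring that changed in both lines. Its level was 143, 156 and 130.5 CPM in the T98G NC libraries and 93.2, 93.5 and 123 CPM with PEPD-OE. In U251 the NC libraries gave 126, 164 and 123 CPM and the PEPD-OE libraries 187, 199 and 185 CPM. Each PEPD-OE library lay under all NC libraries in T98G and over all of them in U251. The log2 fold change was -0.47 (adjusted p = 0.0132, SE 0.16) in T98G and 0.47 (adjusted p = 0.0164, SE 0.14) in U251, and the difference was -0.94 (adjusted p = 0.000144, SE 0.21). Without both libraries with blood-gene counts the T98G call was lost (log2 fold change -0.34, adjusted p = 0.247), while the difference held (adjusted p = 0.0098). MCM7 shares 392 exon bases with AP4M1 on the other strand, a subunit of the AP-4 adaptor of vesicle transport, which moved the other way, with a log2 fold change of 0.28 (adjusted p = 0.0414, SE 0.11) in T98G.

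MCM3 (chr6:52264009-52284881) had no opposite-strand partner and fell in T98G from 158, 138 and 147 to 78.4, 91.9 and 76.9 CPM, with no overlap. The log2 fold change was -0.83 (adjusted p = 7.68e-06, SE 0.16). In U251 its level was 125 ± 13.7 CPM with NC and 164 ± 3.25 CPM with PEPD-OE, a log2 fold change of 0.40 (adjusted p = 0.0551, SE 0.14) that missed the threshold although the libraries did not overlap. Both the fall in T98G and the difference, -1.23 (adjusted p = 8.2e-07, SE 0.21), stayed called in every alternative fit that was run.

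MCM4 (chr8:47960185-47978160) went from 84.4, 79.3 and 75.3 CPM in T98G NC to 59.2, 43.6 and 37.0 CPM with PEPD-OE. Every PEPD-OE library was under the lowest NC library, and the log2 fold change was -0.76 (adjusted p = 0.0023, SE 0.21). In U251 the means were 25.9 ± 4.70 and 34.8 ± 7.80 CPM, and the change of 0.45 (adjusted p = 0.325, SE 0.26) did not pass. MCM5 (chr22:35400063-35425430) gave 50.6, 70.2 and 59.0 CPM in T98G NC and 31.1, 45.2 and 48.4 CPM with PEPD-OE. Its groups came close to each other without overlapping, and its call, -0.55 (adjusted p = 0.0481, SE 0.22), was lost in 14 of 22 alternative fits, with -0.48 (adjusted p = 0.245) without both libraries with blood-gene counts. U251 held 41.4 ± 3.83 CPM with NC and 47.5 ± 3.30 CPM with PEPD-OE.

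MCM6 (chr2:135839626-135876426) was called in U251, where its level was 9.63, 9.02 and 8.97 CPM with NC and 25.6, 19.1 and 18.2 CPM with PEPD-OE. The NC libraries were close to each other, each PEPD-OE library lay above them, and the log2 fold change was 1.15 (adjusted p = 0.0432, SE 0.39). In T98G its level was 29.3 ± 13.3 CPM with NC and 15.8 ± 6.06 CPM with PEPD-OE, with overlapping libraries and a change of -0.80 (adjusted p = 0.0667, SE 0.35). Leaving out both libraries with blood-gene counts brought that change to -1.27 (adjusted p = 0.0151). The difference between lines was -1.95 (adjusted p = 0.00184, SE 0.52). MCM2, the ring's remaining subunit, was not called in either line, with 0.09 (adjusted p = 0.763, SE 0.19) in T98G and 0.43 (adjusted p = 0.211, SE 0.21) in U251. Its opposite-strand partner AC023593.1 had means of 1133 ± 28.1 and 834 ± 35.9 CPM in T98G and a log2 fold change of -0.44 (adjusted p = 2.76e-05, SE 0.09). In U251 the change of AC023593.1 was 0.22 (adjusted p = 0.126, SE 0.09), not called. Its difference between lines was -0.66 (adjusted p = 1.15e-05, SE 0.13).

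CDC45 and GINS turn the loaded ring into the moving helicase. CDC45 (chr22:19479459-19520612) was at 25.3, 29.9 and 21.3 CPM in T98G NC and at 11.8, 6.23 and 15.7 CPM with PEPD-OE. In U251 it was at 9.63, 3.86 and 5.12 CPM with NC and at 15.1, 16.7 and 16.0 CPM with PEPD-OE. The T98G groups and the U251 groups were each apart, in opposite directions, with as few as 3.86 CPM, or 3 counts, in a library. Each U251 NC library held under 10 counts of CDC45. The log2 fold change was -1.15 (adjusted p = 0.012, SE 0.38) in T98G and 1.33 (adjusted p = 0.0396, SE 0.44) in U251. The difference of -2.48 (SE 0.58, adjusted p = 0.00034) was the largest of the 41 genes in size. Without the libraries with blood-gene counts the T98G change was -0.73 (adjusted p = 0.279).

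Of the 4 GINS subunits, GINS1 and GINS3 were tested. GINS3 (chr16:58295080-58406144) was 1 of the 2 genes that rose in T98G, from 8.44, 11.7 and 26.3 to 32.5, 28.0 and 35.6 CPM. The highest NC library, at 26.3 CPM, came near the lowest PEPD-OE library, and the log2 fold change was 0.95 (adjusted p = 0.0194, SE 0.34) and became 0.81 (adjusted p = 0.136) without both libraries with blood-gene counts. In U251 it stood at 9.24 ± 3.31 CPM with NC and 9.57 ± 2.84 CPM with PEPD-OE. Its partner on the other strand, AC009118.2, shares 558 exon bases with it and fell in T98G, with a log2 fold change of -0.79 (adjusted p = 0.0213, SE 0.28), and rose in U251, with 0.73 (adjusted p = 0.0302, SE 0.23). Per kilobase of exon, AC009118.2 held 17.8 times the counts of GINS3. Which of these rows holds the reads of GINS3 was not tested, so its rise is that of the row. GINS1 was not called, with -0.17 in T98G and 0.33 in U251. GINS2 and GINS4 had too few counts for the test, with 79 and 92 counts over the 12 libraries.

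Among licensing and firing factors a single gene was called. Of ORC1 and ORC6 (origin recognition), CDC6 and CDT1 (loaders of the ring) and MCM10 (which activates the loaded helicase), 1 of 5 was lower in T98G and none was called in U251 (1 had an unadjusted p under 0.05), where the 5 genes had log2 fold changes from 0.08 to 0.60. MCM10 (chr10:13161554-13211104) went from 23.2, 19.5 and 16.3 CPM in T98G NC to 5.92, 10.9 and 2.85 CPM with PEPD-OE. All PEPD-OE libraries were below all NC libraries, but each of the T98G PEPD-OE libraries held under 10 counts of MCM10, and PEPD-OE 3 held under 3. Its log2 fold change of -1.55 (adjusted p = 0.0063, SE 0.48) was the lowest of the 41 genes, and without T98G PEPD-OE 3 its adjusted p was 0.067. In U251 the means were 9.23 ± 0.93 and 13.1 ± 8.59 CPM, and the difference between lines was -2.09 (adjusted p = 0.00849, SE 0.65). The values in T98G were -0.19 for ORC1, -0.73 for ORC6, -0.18 for CDC6 and -0.12 for CDT1, none called. Without both libraries with blood-gene counts those of ORC1 and CDC6 turned positive, to 0.18 and 0.08, still not called.

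Among polymerases and primase, 2 of 6 tested genes were lower in T98G (POLA1 and POLE) and 3 were higher in U251 (POLD1, POLD3 and POLE). All 6 had negative values in T98G and positive values in U251, except that POLD1 turned to 0.31 (adjusted p = 0.641) in T98G without both libraries with blood-gene counts, and the difference was called for POLA1, POLD3 and POLE. The summed level of all 9 genes was 177, 192 and 193 CPM in T98G NC and 169, 134 and 123 CPM with PEPD-OE. It was 105, 111 and 101 CPM in U251 NC and 151, 171 and 167 CPM with PEPD-OE. Neither line had overlapping groups, and the rise in U251, to a ratio of 1.54, was the largest of the 9 role groups.

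POLE (chr12:132623753-132687365), the catalytic subunit of the leading-strand polymerase epsilon, was at 35.9, 35.1 and 28.9 CPM in T98G NC and at 16.3, 9.35 and 18.5 CPM with PEPD-OE. U251 NC gave 15.6, 15.5 and 12.8 CPM and U251 PEPD-OE gave 22.6, 34.6 and 32.0 CPM. The groups were apart in both lines, and the T98G PEPD-OE mean of 14.7 ± 4.78 CPM was close to the U251 NC mean of 14.6 ± 1.59 CPM. The log2 fold change was -1.14 (adjusted p = 0.00332, SE 0.33) in T98G and 1.04 (adjusted p = 0.0186, SE 0.31) in U251, with a difference of -2.18 (adjusted p = 3.97e-05, SE 0.45). The T98G call was lost in 1 of 22 alternative fits, that without both libraries with blood-gene counts (log2 fold change -0.86, adjusted p = 0.11).

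POLA1 (chrX:24693919-24996986), the catalytic subunit of polymerase alpha, which extends the primer, went from 35.9, 22.1 and 22.6 to 8.87, 20.3 and 11.4 CPM in T98G. The highest PEPD-OE library came near the lowest NC library, and the change was -0.93 (adjusted p = 0.0407, SE 0.37). That call was lost in 7 of 22 alternative fits, among them those without T98G PEPD-OE 1, PEPD-OE 3 or NC 1, and the change was -1.45 (adjusted p = 0.0158) without both libraries with blood-gene counts. Its U251 means were 9.24 ± 3.31 and 13.2 ± 3.88 CPM, and the difference between lines was -1.48 (adjusted p = 0.0372, SE 0.56), a call lost in 11 of 21 alternative fits. PRIM1, the catalytic primase subunit, had lower levels in all T98G PEPD-OE libraries, 9.94 ± 1.23 CPM against 17.5 ± 1.11 CPM, but its change of -0.82 (adjusted p = 0.148, SE 0.44) did not pass.

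A pair of genes of polymerase delta, the enzyme of the lagging strand, was called in U251 and not in T98G. POLD1 (chr19:50384204-50418016), its catalytic subunit, was at 28.9, 24.5 and 19.2 CPM in U251 NC and at 37.7, 44.2 and 49.1 CPM with PEPD-OE. POLD3 (chr11:74493851-74669117), an accessory subunit, was at 9.63, 10.3 and 7.69 CPM with NC and 27.1, 15.5 and 21.4 CPM with PEPD-OE. Both genes had separate groups, with log2 fold changes of 0.86 (adjusted p = 0.019, SE 0.26) for POLD1 and 1.17 (adjusted p = 0.0333, SE 0.38) for POLD3. In T98G the means of POLD1 were 23.5 ± 7.20 and 22.7 ± 8.52 CPM, and those of POLD3 were 24.2 ± 2.52 and 21.9 ± 8.47 CPM. The difference between lines was called for POLD3, -1.31 (adjusted p = 0.0398, SE 0.51), but was lost in 13 of 21 alternative fits, DESeq2 and 8 fits without a single library among them. It was not called for POLD1, -0.96 (adjusted p = 0.0683, SE 0.41). POLD2 was not called in either line. POLA2, PRIM2 and POLE2 were not tested, with 83, 33 and 8 counts in all. POLA2, the regulatory subunit of polymerase alpha, had 0, 10.4 and 7.53 CPM in T98G NC and 22.2, 12.5 and 14.2 CPM with PEPD-OE. Those groups did not overlap, and POLA2 was called higher in T98G (log2 fold change 1.92, adjusted p = 0.0236) without both libraries with blood-gene counts. It passed the filter in 8 alternative fits and was called higher in 4 of them, the others being those without T98G PEPD-OE 2, T98G NC 2 or U251 PEPD-OE 1.

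**Figure D3:**
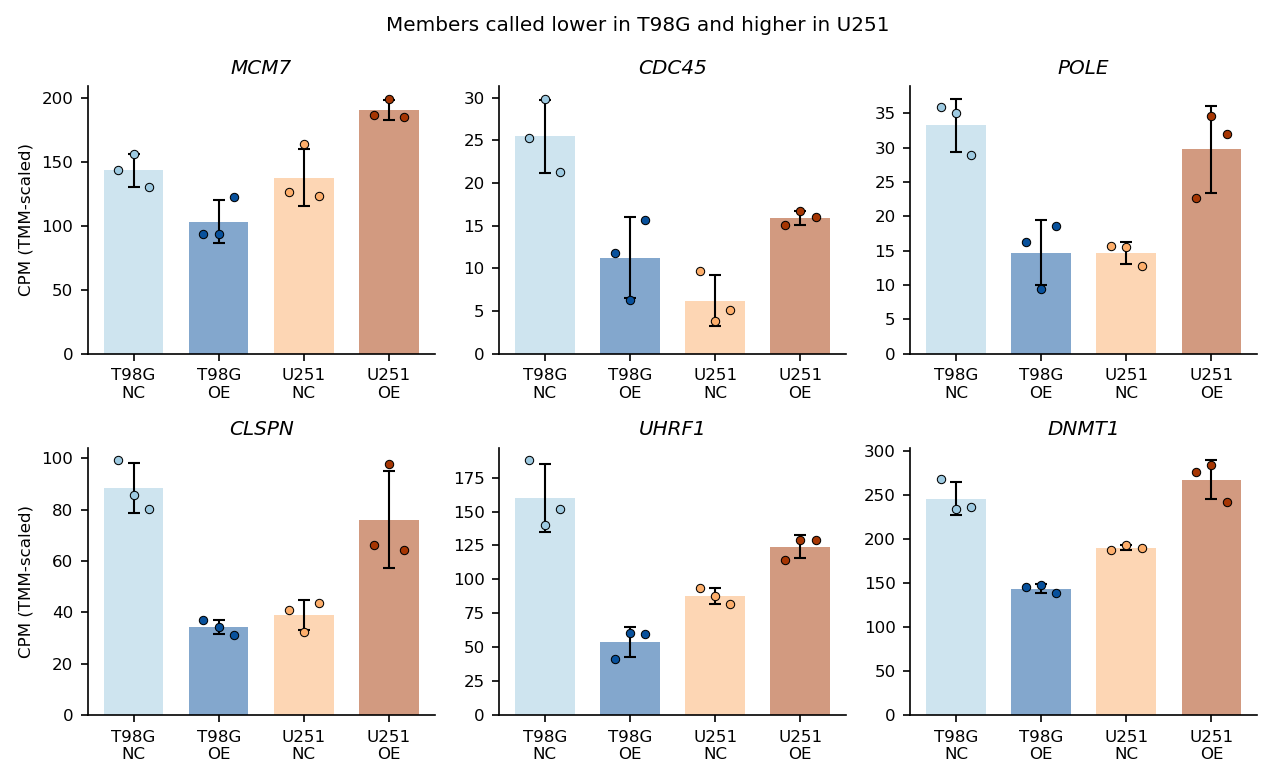
Level (CPM, linear axis from 0) of the 6 genes called lower in T98G and higher in U251; points are libraries, bars the mean and error bars the SD of 3 libraries. In each panel the T98G PEPD-OE points lie under the T98G NC points and the U251 PEPD-OE points over the U251 NC points, as for CLSPN, from 31.3 to 37.0 CPM against 80.3 to 99.2 CPM in T98G and from 64.1 to 97.9 CPM against 32.2 to 43.5 CPM in U251.

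The clamp and its loader did not move as a block. PCNA (chr20:5114953-5126626), the ring that keeps polymerases on DNA, rose in U251 from 13.2, 9.02 and 11.5 to 18.1, 28.7 and 25.6 CPM. The PEPD-OE libraries were all above NC, and the log2 fold change was 1.11 (adjusted p = 0.0219, SE 0.34). In T98G its libraries also did not overlap, with 40.2 ± 2.62 CPM for NC and 29.9 ± 5.82 CPM for PEPD-OE, but the change of -0.43 (adjusted p = 0.223, SE 0.27) did not pass. The difference between lines was -1.54 (adjusted p = 0.00317, SE 0.43). RFC1 (chr4:39287456-39366375), the large subunit of the loader, was the other gene that rose in T98G, from 35.9, 48.1 and 27.6 to 50.3, 63.9 and 54.1 CPM. The nearest libraries of the groups were at 48.1 and 50.3 CPM, the log2 fold change was 0.59 (adjusted p = 0.0433, SE 0.23), and without both libraries with blood-gene counts it was 0.75 (adjusted p = 0.0656). In U251 RFC1 was at 43.5 ± 1.16 CPM with NC and 60.8 ± 8.66 CPM with PEPD-OE, a change of 0.46 (adjusted p = 0.172, SE 0.21) in the same direction, and the difference between lines was 0.12 (adjusted p = 0.822, SE 0.32).

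The small subunits of the loader were not called in either line. RFC5 was below NC in all PEPD-OE libraries of both lines, with -0.78 (adjusted p = 0.114, SE 0.39) in T98G and -0.71 (adjusted p = 0.0584, SE 0.25) in U251. RFC2, RFC3 and RFC4 had overlapping libraries in both lines. In T98G the summed level of the clamp and loader genes was 139, 178 and 120.4 CPM with NC and 148, 139 and 147 CPM with PEPD-OE, and these groups overlapped.

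Nucleotide supply was represented by RRM1 and RRM2 (the subunits of ribonucleotide reductase), TYMS (thymidylate synthase) and TK1 (thymidine kinase). In T98G none of the 4 was called by edgeR and 1 had an unadjusted p under 0.05. In U251 RRM2 was called. RRM2 (chr2:10120698-10131419) was at 79.5, 63.1 and 49.95 CPM in U251 NC and at 105, 112 and 85.4 CPM with PEPD-OE. The groups were apart, with a log2 fold change of 0.64 (adjusted p = 0.00895, SE 0.18), and the call was lost without PEPD-OE 2 or NC 3 of U251. T98G levels were 77.8 ± 13.1 CPM with NC and 64.0 ± 10.7 CPM with PEPD-OE, and the difference between lines was -0.89 (adjusted p = 0.00566, SE 0.26). RRM1 passed the test of the difference alone, -1.03 (adjusted p = 0.0109, SE 0.33), with -0.49 in T98G and 0.54 in U251. TYMS and TK1 had changes of -0.27 and -0.02 in T98G and of 0.47 and 0.26 in U251, none called. The summed level of the 4 genes went from 238, 236 and 235 to 192, 203 and 204 CPM in T98G and from 195, 161 and 191 to 228, 292 and 249.9 CPM in U251, so the sums were apart in both lines.

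ENOSF1, which lies opposite TYMS and shares 967 exon bases with it, moved in both lines in the direction of the TYMS values. Its means were 3051 ± 109 CPM in T98G NC and 2656 ± 122 CPM with PEPD-OE, a log2 fold change of -0.20 (adjusted p = 0.0178, SE 0.07). In U251 they were 5574 ± 97.9 and 6541 ± 164 CPM, a log2 fold change of 0.23 (adjusted p = 0.0179, SE 0.07). Per kilobase of exon, ENOSF1 held 22.7 times the counts of TYMS. Over the 10 tested partners of the replication genes, 5 were lower and 1 higher in T98G, where 14.7% and 17.7% of all tested genes were. In U251, 3 partners were higher, where 4.13% of all tested genes were. For the difference, 6 partners were lower and 1 higher, where 13.6% and 14.1% of all tested genes were. AC009630.2, opposite GINS4, had -0.36 (adjusted p = 0.00727, SE 0.11) in T98G and 0.40 (adjusted p = 0.014, SE 0.12) in U251. WSB2, opposite RFC5, fell in T98G with -1.33 (adjusted p = 0.000393, SE 0.32), and GPAT4-AS1, also opposite GINS4 and with 14505 counts against its 92, was not called in either line.

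**Figure D4:**
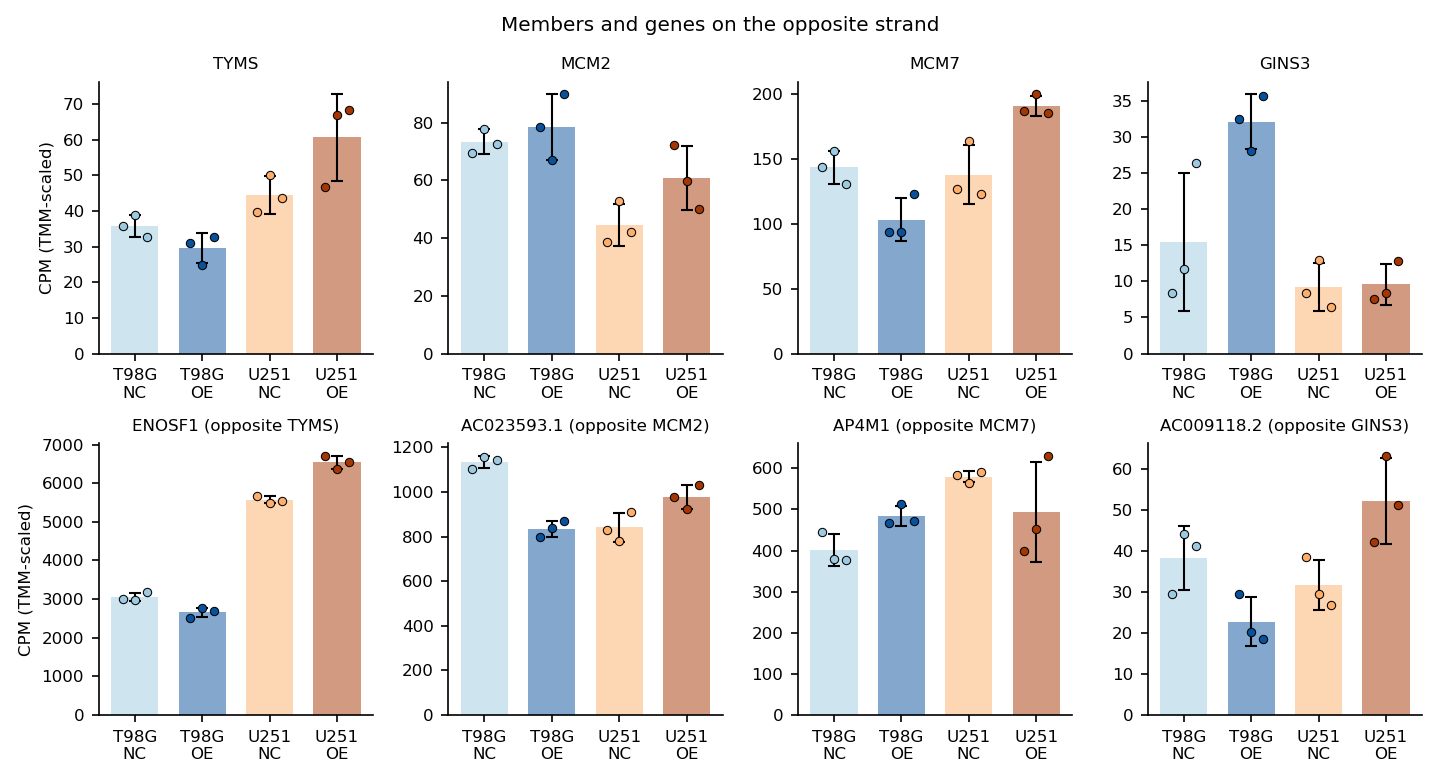
Level (CPM, linear axis from 0) of TYMS, MCM2, MCM7 and GINS3 (upper row) and of a gene on the opposite strand of each (lower row); points are libraries, bars the mean and error bars the SD of 3 libraries. The vertical scales differ: ENOSF1 has group means from 2656 to 6541 CPM, and AP4M1 and AC009118.2 move against MCM7 and GINS3 in T98G.

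Among the genes of single-strand binding, fork stability and Okazaki fragment processing, CLSPN changed in both lines. Claspin, its product, carries the checkpoint signal from stalled forks. CLSPN (chr1:35720218-35769967) was at 99.2, 85.8 and 80.3 CPM in T98G NC and at 37.0, 34.3 and 31.3 CPM with PEPD-OE. In U251 it was at 40.9, 32.2 and 43.5 CPM with NC and at 66.3, 97.9 and 64.1 CPM with PEPD-OE. Its groups were far apart in T98G and apart in U251, where PEPD-OE 2 was the highest. The log2 fold change was -1.35 (adjusted p = 9.09e-08, SE 0.22) in T98G and 0.97 (adjusted p = 0.00025, SE 0.20) in U251, with a difference of -2.31 (adjusted p = 4.75e-11, SE 0.30), and the T98G, U251 and difference calls held in all the alternative fits in which CLSPN could be tested. RPA2 (chr1:27891524-27914746), a subunit of the single-strand binding protein, went from 10.6, 15.6 and 12.5 to 2.96, 7.79 and 4.27 CPM in T98G. These groups were apart, but the PEPD-OE libraries held 2 to 5 counts, with a change of -1.38 (adjusted p = 0.0306, SE 0.52) that became -1.66 (adjusted p = 0.0779) without both libraries with blood-gene counts. In U251 RPA2 was at 19.6 ± 3.08 CPM with NC and 17.0 ± 2.77 CPM with PEPD-OE.

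RPA1, FEN1 (the flap nuclease) and LIG1 (the ligase that joins Okazaki fragments) were not called in either line. FEN1 was above NC in all U251 PEPD-OE libraries, 96.7 ± 7.88 against 71.0 ± 14.9 CPM, with a change of 0.43 (adjusted p = 0.102, SE 0.17). TIPIN, a fork protection factor, was not tested, with 40 counts in all. It had 6.33, 9.10 and 10.04 CPM in T98G NC and 2.96, 0 and 2.85 CPM with PEPD-OE, groups that did not overlap.

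The genes that copy chromatin and DNA methylation behind the fork showed the lowest ratio of summed levels in T98G, 0.559. UHRF1, which recognises half-methylated DNA, and DNMT1, the methyltransferase it brings there, changed in both lines. UHRF1 (chr19:4903080-4962154) was at 188, 140.3 and 152 CPM in T98G NC and at 41.4, 60.8 and 59.8 CPM with PEPD-OE. In U251 it was at 93.9, 87.6 and 82.0 CPM with NC and at 115, 129 and 129 CPM with PEPD-OE. Neither line had overlapping groups. Its log2 fold change was -1.54 (adjusted p = 9.23e-14, SE 0.18) in T98G and 0.50 (adjusted p = 0.0252, SE 0.16) in U251, with a difference of -2.05 (adjusted p = 3e-13, SE 0.24). The T98G fall and the difference held in all alternative fits, and the U251 rise was lost in 8 of 22.

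DNMT1 (chr19:10133345-10231286) had the most counts of the 49 genes. It was at 268, 234 and 236 CPM in T98G NC and at 145, 148 and 138 CPM with PEPD-OE. U251 NC held 188, 193 and 189.6 CPM and U251 PEPD-OE 276, 284 and 242 CPM. The NC and PEPD-OE libraries did not overlap in either line, and the NC libraries of U251 were the closest to each other. The log2 fold change was -0.77 (adjusted p = 7.99e-07, SE 0.13) in T98G and 0.49 (adjusted p = 0.00372, SE 0.12) in U251, and the difference was -1.25 (adjusted p = 4.28e-09, SE 0.18). All of these calls held in every alternative fit.

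CHAF1B (chr21:36385378-36419015), a subunit of the chromatin assembly factor that places histones on new DNA, went from 29.5, 24.7 and 45.2 to 16.3, 23.4 and 18.5 CPM in T98G. The groups nearly touched, and the change was -0.80 (adjusted p = 0.0442, SE 0.32), with a call lost in 8 of 22 alternative fits. U251 held 10.9 ± 2.79 CPM with NC and 14.5 ± 6.15 CPM with PEPD-OE. CHAF1A, its partner subunit, was not called, with -0.17 in T98G and 0.43 in U251, although all U251 PEPD-OE libraries lay above NC. SLBP, which binds the stem-loop of histone mRNA, was not called in either line. E2F1, the one E2F factor of the set with enough counts, had 40.7 ± 3.36 and 34.2 ± 1.54 CPM in T98G and 24.6 ± 2.91 and 37.0 ± 15.2 CPM in U251, with changes of -0.24 (adjusted p = 0.529, SE 0.26) and 0.63 (adjusted p = 0.127, SE 0.26). E2F2 and E2F8 had 4 and 43 counts in all and were not tested.

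Across the role groups, the libraries of summed levels did not overlap, and were lower with PEPD-OE, for 6 of 9 groups in T98G. The exceptions were the clamp and loader, GINS with CDC45, and the E2F factors. In U251 the sums were higher without overlap for 7 of 9 groups, the exceptions being licensing and the E2F factors.

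The lines also differed at baseline. Between the NC groups, 21 of 41 genes (51.2%) were higher in T98G than in U251, where 24.4% of all tested genes were, and 2 (ORC6 and RFC5) were lower, where 24.3% were. In either direction 48.7% of all tested genes were called. The NC libraries did not overlap for 20 genes that were higher in T98G and 5 that were lower, against 27.7% and 27.4% of all tested genes (55.1% in all). The median log2 difference was 0.56, against 0.00 over all tested genes. CDC45 showed the largest, 1.99 (adjusted p = 1.82e-05, SE 0.41), followed by PCNA with 1.81 (adjusted p = 3.21e-07, SE 0.32), CHAF1B with 1.61 (adjusted p = 3.23e-05, SE 0.35) and MCM4 with 1.60 (adjusted p = 7.19e-10, SE 0.23). MCM7 was level at 0.06, and RFC5 was at -1.18. This comparison uses the same NC libraries as those above, so its values stand beside them and no overlap is read from them. Per kilobase of exon, MCM3 stood highest in T98G NC (40.4 CPM per kb), U251 NC (34.1) and U251 PEPD-OE (45.0), and TK1 stood highest in T98G PEPD-OE (33.5), where MCM3 was at 22.6. Within the helicase ring, the levels per kb in T98G NC ran from 7.12 for MCM6 to 40.4 for MCM3.

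Related genes outside the set were read from lists by role. Of all tested genes, 17.7% were higher and 14.7% lower in T98G, 4.13% and 4.42% in U251, and 14.1% and 13.6% for the difference. Of 12 tested licensing and firing genes (14 listed), TICRR, which helps to load CDC45, was higher in T98G, 0.74 (adjusted p = 9.28e-06, SE 0.14), against the direction of most replication genes, and none was called in U251, where 1 had an unadjusted p under 0.05. Of 11 tested fork and lagging-strand genes (19 listed), 2 were lower in T98G and 1 was higher in U251. POLE3, an accessory subunit of polymerase epsilon, was both, with -0.66 (adjusted p = 0.00172, SE 0.18) in T98G and 0.82 (adjusted p = 0.00257, SE 0.20) in U251. CDCA7 was the other gene lower in T98G, -0.89 (adjusted p = 0.0176, SE 0.31), and BRCA1 was called for the difference, -1.57 (adjusted p = 0.00649, SE 0.47).

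Nucleotide synthesis beyond the 4 genes above had calls in both directions, most of them lower in T98G and for the difference. Of 16 tested genes (18 listed), 5 were lower and 2 higher in T98G, 1 was higher in U251, and 7 were lower and 2 higher for the difference. Of all tested genes, 14.7% were lower and 17.7% higher in T98G, and 13.6% and 14.1% for the difference. The medians of this list were -0.44 in T98G, 0.23 in U251 and -0.65 for the difference, where 13 of 16 values were negative. CTPS1, which makes CTP, fell in T98G from 68.4 ± 15.7 to 30.5 ± 9.09 CPM and rose in U251 from 24.4 ± 10.6 to 47.1 ± 4.31 CPM. Its log2 fold changes were -1.22 (adjusted p = 1.19e-05, SE 0.24) and 0.94 (adjusted p = 0.00712, SE 0.25). SAMHD1, which breaks down deoxynucleotides, fell in T98G from 186 ± 4.64 to 17.3 ± 1.13 CPM, a log2 fold change of -3.42 (adjusted p = 7.94e-33, SE 0.21). IMPDH2 of guanine nucleotide synthesis fell there, with a value of -1.24 (adjusted p = 4.25e-08, SE 0.20). DHODH of pyrimidine synthesis rose, with 2.02 (adjusted p = 4.57e-09, SE 0.30), and TYMP, which breaks down thymidine, rose too, with 1.22 (adjusted p = 4.41e-05, SE 0.26). The difference between lines was called for these genes and for GART, ATIC, CAD and PAICS of nucleotide base synthesis.

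Regulators of the G1/S step moved both ways, as did all tested genes, of which 32.3% were called in T98G and 8.55% in U251. Of 18 tested E2F, RB and kinase genes (22 listed), 3 were higher and 4 lower in T98G, 1 was higher and 1 lower in U251, and 3 were higher and 4 lower for the difference. CCND1, cyclin D1, went from 268 ± 44.5 to 172 ± 11.9 CPM in T98G and from 71.0 ± 9.04 to 229 ± 18.5 CPM in U251. It fell in T98G, -0.66 (adjusted p = 2.03e-05, SE 0.13), and rose in U251, 1.68 (adjusted p = 3.47e-19, SE 0.15). CDK4, its kinase, did the reverse, with 0.37 (adjusted p = 0.0411, SE 0.15) in T98G and -0.62 (adjusted p = 0.000756, SE 0.14) in U251. CDC25A, a phosphatase that activates CDK2, was lower in T98G, -1.44 (adjusted p = 0.0302, SE 0.54), and CDK6 was too, -1.37 (adjusted p = 0.000106, SE 0.30). TFDP1, the partner of E2F factors on DNA, was lower there with -0.73 (adjusted p = 0.0313, SE 0.28). E2F5, RBL2, CDK4, E2F7, CDC25A, CCND1 and CDK6 were called for the difference between lines. RBL2, a pocket protein that binds E2F factors, was higher, 0.58 (adjusted p = 0.0293, SE 0.22). Of 3 tested CDK inhibitors (8 listed), CDKN1B was higher in T98G, from 26.5 ± 2.91 to 57.2 ± 7.38 CPM with 1.09 (adjusted p = 0.000183, SE 0.25), and none was called in U251, where 1 had an unadjusted p under 0.05. CCND1, CDK4, CDK6, RBL2, POLE3, TICRR, SAMHD1 and IMPDH2 share exon bases with a gene on the other strand.

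Genes of G2 and mitosis were mostly not called. Of 37 tested (40 listed), 1 was higher and 4 were lower in T98G, and none was called in U251 (4 had an unadjusted p under 0.05). Over all tested genes, 17.7% were higher and 14.7% lower in T98G, and 8.55% were called in U251. The medians of the G2/M genes were 0.02 in T98G and 0.07 in U251. Their summed level was 2391 ± 37.5 CPM in T98G NC and 2491 ± 137 CPM with PEPD-OE, with overlapping libraries. In U251 it was 1947 ± 137 CPM with NC and 2111 ± 73.2 CPM with PEPD-OE, also overlapping. The gene that was higher in T98G was TOP2A, the topoisomerase that untangles chromosomes, 0.77 (adjusted p = 3.75e-08, SE 0.12). AURKA, PLK1, BUB1B and NDC80 were lower there, and NDC80, a kinetochore protein, had -1.11 (adjusted p = 0.0477, SE 0.45). AURKA, a mitotic kinase, went from 58.6 ± 3.28 to 29.5 ± 11.3 CPM. For the difference between lines, 1 G2/M gene was higher (TOP2A) and 4 were lower (AURKA, PLK1, BUB1B and ANLN), where 14.1% and 13.6% of all tested genes were.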

How the data were processed

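Polyadenylated RNA of 12 libraries (3 in each of 4 groups) was captured on beads, made into strand-marked libraries and sequenced in pairs, per the labels' protocols. The authors deposited 1 table of whole-number counts per gene. Tools named in the submitters' processing notes are fastp, FastQC, featureCounts, HISAT2 and Subread, with the build GRCh38. Their versions and the strand setting of the counting were not given in the sources used. Groups came from the sample titles.

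Counts were scaled by TMM and tested with edgeR 4.0.16 in R 4.3.3 (quasi-likelihood, robust, filterByExpr with a minimum count of 10, 1 mean per group over 12 libraries, 8 residual degrees of freedom). P-values were adjusted by Benjamini-Hochberg over 8773 genes. The SE is the fold change divided by the square root of F. Contrasts were PEPD-OE minus NC in each line, the difference of those changes, and T98G NC minus U251 NC. Scripts were tested on simulated data. The genes and lists were chosen with earlier results of these data known. Genes outside the set are named by size among called genes of each list, or by a call for the difference. Gene positions and exon overlap came from GENCODE 29 and promoters from RefSeq (GRCh38.p14). Alternatives were other scalings, filters, DESeq2 1.42.0, each line alone, a replicate block, genes without opposite-strand overlap, each library left out, and, chosen after seeing the data, both T98G libraries with blood-gene counts left out.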

Additional observations from a re-analysis of the deposited data

Results flagged for a closer look

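The change with PEPD over-expression differed between T98G and U251, by edgeR's test of the difference itself with Benjamini-Hochberg adjustment over 8773 genes, for 15 replication genes. Values are the T98G change minus the U251 change on the log2 scale, so a negative value means a lower change in T98G. In the helicase these were -1.23 for MCM3, -1.21 for MCM4, -1.95 for MCM6 and -0.94 for MCM7. For its activators they were -2.48 for CDC45 and -2.09 for MCM10. Among polymerases they were -1.48 for POLA1, -1.31 for POLD3 and -2.18 for POLE, and for the clamp -1.54 for PCNA. In ribonucleotide reductase they were -1.03 for RRM1 and -0.89 for RRM2. At the fork and on copied chromatin they were -2.31 for CLSPN, -2.05 for UHRF1 and -1.25 for DNMT1. The smallest adjusted p of these was that of UHRF1 (3e-13) and the largest that of POLD3 (0.0398).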

How the results depend on the processing

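No called change turned its sign in any alternative; changes that were not called did in places (ORC1, CDC6 and POLD1 in T98G without both libraries with blood-gene counts). In T98G, 8 genes were called lower with DESeq2 and 8 among genes without opposite-strand overlap (26 of the genes tested there), in place of 13, and 8 to 13 when single libraries were left out. Over all tested genes, DESeq2 called 912 lower and 1181 higher in T98G, in place of 1286 and 1551. The 2 genes called higher in T98G became 0 with DESeq2 and with no filter on low counts. They became 1 with upper-quartile scaling, with a minimum of 1 CPM in 3 libraries, among genes without overlap and without both libraries with blood-gene counts, and 0 to 3 without single libraries (0 without T98G PEPD-OE 3 or NC 1, 1 without NC 3). The 11 genes called higher in U251 became 3 with DESeq2 (18 had an adjusted p), 4 with no filter, 7 with a minimum of 1 CPM, 7 among genes without overlap and 2 to 11 without single libraries. Over all tested genes, the 362 called higher in U251 became 157 with DESeq2, 244 with no filter, 277 with a minimum of 1 CPM and 134 among genes without overlap. The count called lower in U251, 0, was 1 (RFC5) with RLE scaling and 0 to 1 without single libraries (1 without U251 PEPD-OE 3 or NC 2, again RFC5). The difference was called for 10 to 18 genes over the alternatives, of which 10 to 15 were among the 15. Between the NC groups, 23 genes became 12 among genes without overlap and 17 to 23 without single libraries. The cause of these changes was not tested, except that fewer genes were tested among those without overlap.

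A fit with the replicate number as a block called 11 lower and 2 higher in T98G, 12 higher and 0 lower in U251, 15 for the difference and 23 between the NC groups. Same-numbered libraries had correlations of their deviations from -0.042 to 0.077 over 18 pairs of groups and numbers, and differently numbered libraries from -0.061 to 0.039. Between the PEPD-OE groups of T98G and U251, same numbers gave 0.069, 0.034 and 0.077, and different numbers gave -0.061 to -0.009. The lowest same-number value, -0.042, was between the U251 groups. Both T98G libraries with blood-gene counts carry the number 2. Whether the numbers pair the libraries was not tested further. Depth limits what could be called, since 8 of the 49 genes had too few counts to test.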
